A study of Haemaphysalis flava with 2 samples.

Results

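The autophagy and cell death unigenes of the midgut of Haemaphysalis flava, a hard tick that feeds on vertebrate blood, were compared between fully engorged (FE) ticks and partially engorged (PE) ticks. A unigene is an assembled transcript or transcript fragment. Members were the unigenes whose best protein description named autophagy, apoptosis, a caspase, Bcl-2, beclin, a sequestosome, a death-associated protein, a GABA receptor-associated protein or programmed cell death, with zinc fingers left out. This gave 96 of the 65535 unigenes of the expression table, of which 22972 had a description. The description came from the Nr protein database for 92 members and from UniProt for 4. Each feeding state had 1 library of polyadenylated midgut RNA. A total of 30 midguts were dissected per state, 60 in all, but no source used here says how many entered each library. The FE group is engorged ticks and the PE group ticks that had fed in part. No source used here gives their sex, strain, host or days of feeding. Replicate spread does not exist with a single library per state, so no test was made and every difference below is between these libraries.

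Autophagy wraps cytoplasm in a double membrane, the autophagosome, and delivers it to the lysosome. A beclin-containing lipid kinase complex starts the membrane, ATG9 and ATG2 supply lipid to it, and a ubiquitin-like conjugation system with an E1 enzyme, ATG5 and ATG16 attaches ATG8 proteins to it. Apoptosis is run by caspases, cysteine proteases held as inactive precursors. Initiator caspases are activated on adaptors such as APAF, effector caspases then cut cell proteins, inhibitor of apoptosis proteins (IAPs) block caspases, Smac relieves that block, and Bcl-2 proteins control the mitochondrial step. Tick midgut cells take up blood proteins and digest them inside lysosome-like vesicles, and the midgut lining is reshaped as feeding proceeds.

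Library totals implied by the deposited values were 41432770 reads for FE and 50397332 for PE, and the listed unigenes held 86.8% and 87% of them. Levels are given in RPKM, which scales reads to the length of the unigene in kilobases and to the library total, and sums over unigenes in RPM, the same scaling to the library total without the length. The call higher or lower in FE was made where log2 of (FE RPKM + 1)/(PE RPKM + 1) was at least 1 in size and the 95% exact interval of the read ratio, which covers counting error only, excluded a ratio of 1. Unigenes under 1 RPKM in both libraries were left out. Of the 44982 unigenes kept, 25.7% were called higher and 11.1% lower in FE, 36.8% in either direction, and their median log2 ratio was 0.36. Scaling by the trimmed mean of M values (TMM), which treats most unigenes as equal, lowered FE levels relative to PE levels by 0.39 on the log2 scale. Since 1 RPKM is added after that scaling, log2 ratios of unigenes low in a library moved by less, and the median of all unigenes kept became 0.06. Scaling to the median of the unigenes at 10 RPKM or more in both libraries (centred scaling) lowered each log2 ratio by 0.21 and the median to 0.15. Called shares were then 18.3% higher and 15.6% lower with TMM (33.9% in all), and 19.4% higher and 14.6% lower with centred scaling (34% in all). The midgut digestive enzyme list took descriptions that name cathepsin B, C, D or L, legumain, longipain or the word midgut. The summed level of its 21 unigenes was 1789 RPKM in FE and 2964 RPKM in PE. No such unigene was at 0 in FE and 4 were at 0 in PE. Other tissue lists were present too. Their summed levels in FE and PE were 6235 and 20162 RPKM for 95 salivary gland unigenes, 6139 and 17077 RPKM for 16 fat body and hemocyte unigenes, and 3679 and 4503 RPKM for 73 muscle unigenes. They were 385 and 259 RPKM for 39 nervous tissue unigenes and 142 and 49.4 RPKM for 3 ovary and yolk unigenes. No unigene matched the host blood list. The part of these tissues in the results below was not tested. In bulk RNA, fewer cells of a type and less RNA per cell cannot be told apart.

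Of the 96 members, 88 reached 1 RPKM in a library. This bar was met in both libraries by 71, in FE alone by 7 and in PE alone by 10. Reads were present in both libraries for 94 members, and 2 members, both caspases, had no read in PE. Called higher in FE were 23 members and called lower were 10, which is 37.5% of the 88 against the 36.8% of all unigenes kept. Every member has a description, and of the 18815 kept unigenes with a description 40.1% were called, 30.7% higher and 9.4% lower. With TMM the member counts were 15 higher and 16 lower, and with centred scaling 17 and 15. The members' median log2 ratio was 0.23, beside 0.36 for all unigenes kept and 0.50 for those with a description. The members' median changed sign to -0.11 with TMM. By role, autophagy unigenes had 8 called higher and 0 lower among 13, caspases had 10 higher and 10 lower among 49, and the remaining cell death unigenes had 5 higher and 0 lower among 26. With TMM these counts became 4 and 0, 7 and 14, and 4 and 2.

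**Figure D1:**
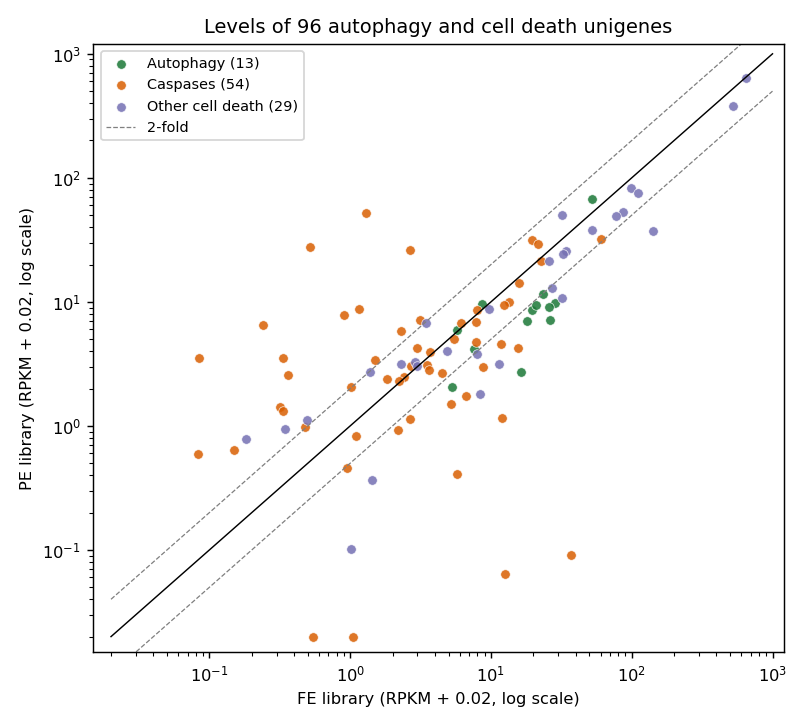
RPKM of the 96 members in the FE library (x axis) and the PE library (y axis), both on log scales after adding 0.02, with the line of equality and the 2-fold lines dashed. Most autophagy unigenes lie on the FE side of equality, as do 40407 of all 65535 unigenes, and the caspases (54) spread far to both sides.

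**Figure D2:**
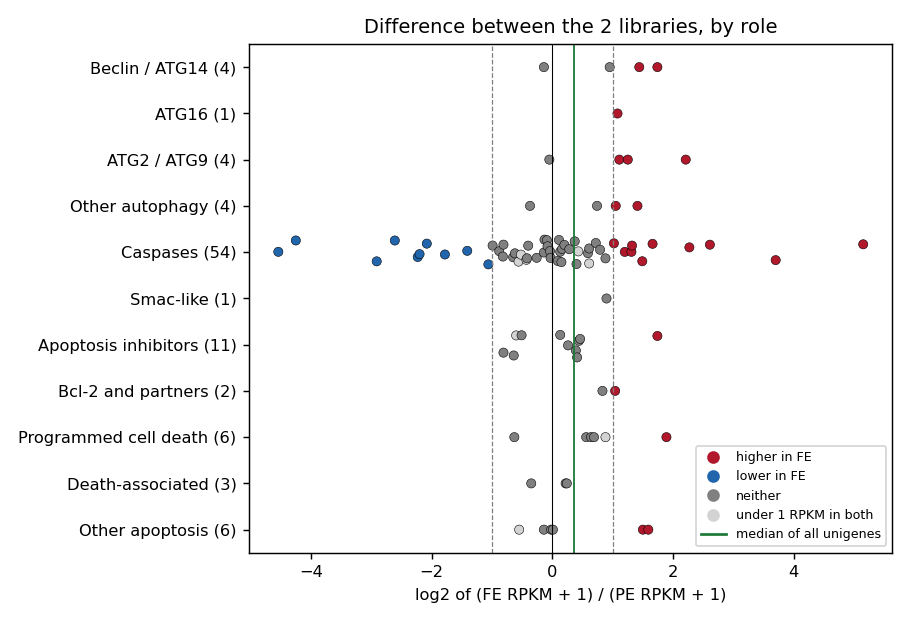
Log2 of (FE RPKM + 1)/(PE RPKM + 1) for each member by role, with the number of unigenes in brackets, dashed lines at -1 and 1 and a green line at the median of all unigenes kept, 0.36. Called unigenes are red (higher in FE) or blue (lower in FE), and the only role with blue points is the caspases, from -4.54 to 5.15 (with TMM an inhibitor and a programmed cell death unigene are also lower).

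In all 4 members exceeded 100 RPKM in FE and 2 did in PE. Contig1201, described in Nr as the apoptosis-promoting RNA-binding protein TIA-1/TIAR and in UniProt and KOG (a classification of orthologous protein groups) as a polyadenylate-binding protein, had 643 RPKM in FE and 636 RPKM in PE. Contig179, the Bax inhibitor TEGT/BI-1, a membrane protein of the endoplasmic reticulum that protects against cell death in mammals, had 524 RPKM in FE and 379 RPKM in PE. Neither was called, since the ratios were 1.01 and 1.38. The other members above 100 RPKM in FE were the programmed cell death proteins Contig5045, which was called higher, and Contig7852, which was not.

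Among the autophagy unigenes, 61.5% were called higher in FE beside 25.7% of all unigenes kept and 30.7% of those with a description. Together they held 302 RPM in FE and 186 in PE, a ratio of 1.62 (counting interval 1.58 to 1.67). One unigene, the DRAM1-like Contig6662, held much of the sum, and without it the values were 236 and 99.5 RPM, a ratio of 2.37. Their median log2 ratio was 1.07 beside 0.36 for all unigenes kept and 0.50 for those with a description. The 13 unigenes hit 9 proteins, and with only the most abundant unigene kept for each protein 6 were called higher and 0 lower (3 and 0 with TMM). ATG2 homologs A and B stay separate in that count, though they may come from a single gene. The 4 calls that did not hold with TMM, and the 3 that did not hold with centred scaling, are named below.

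The nucleation complex was represented by beclin and a beclin partner. The beclin 1-associated key regulator, which in mammals is ATG14 and brings the lipid kinase complex to the endoplasmic reticulum, had 26.2 RPKM in FE and 7.16 RPKM in PE (Contig5117, 1297 and 431 reads). This was 3.66-fold higher in FE (3.28 to 4.09). Beclin itself, the scaffold of the complex, was described for 3 unigenes that all hit 1 Ixodes protein of 443 residues. Contig1952, over residues 1 to 28, had 28.3 RPKM in FE and 9.81 RPKM in PE, 2.88-fold higher (2.41 to 3.46). Contig1953, over residues 67 to 442, had 23.4 RPKM in FE and 11.6 RPKM in PE. It was 2.01-fold higher, and its log2 ratio of 0.95 was just short of a call. Contig16464, over residues 1 to 70, had 8.64 RPKM in FE and 9.64 RPKM in PE. Contig1952 and Contig16464 aligned to the same 28 residues, so these 2 are not pieces of 1 transcript laid end to end. Gene copies, alleles and splice forms cannot be told apart here. The beclin unigenes thus did not move alike, and the one that spans most of the protein lay just under the bar. Summed over the 3 unigenes, which differed in direction, beclin descriptions had 42.4 RPM in FE and 21.5 in PE, a ratio of 1.97 (1.83 to 2.13).

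The conjugation machinery had 3 of its 4 member unigenes called higher in FE. Of all unigenes kept, 25.7% were called higher (18.3% with TMM). ATG3 and ATG4 unigenes of the same machinery fell outside the member rule and are given at the end. Autophagy protein 5 by UniProt (First_Contig1277), which forms the conjugate that ATG16 binds, had 26 RPKM in FE and 9.14 RPKM in PE. It was 2.85-fold higher (2.57 to 3.15). The ATG16-1-like Contig12917 had 20.9 RPKM in FE and 9.42 RPKM in PE, 2.22-fold higher (2.01 to 2.45), and its call did not hold with TMM or centred scaling. The E1-like autophagy protein, an enzyme that activates the ubiquitin-like proteins, was hit by 2 unigenes over different residues of a protein of 702 residues. Contig31691, over residues 400 to 633, had 5.31 RPKM in FE and 2.05 RPKM in PE, 2.59-fold higher (2.09 to 3.23), a call that was also lost with both scalings. Contig28535, over residues 8 to 88, had 7.59 RPKM in FE and 4.15 RPKM in PE and was not called.

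The membrane supply proteins gave the largest autophagy ratio. ATG2 homolog A, which transfers lipid into the growing membrane, was hit by 2 unigenes over the end of a wasp protein of 2072 residues. Contig15706, over residues 1467 to 1734, had 16.2 RPKM in FE and 2.72 RPKM in PE, 5.95-fold higher (5.01 to 7.11). Second_Contig3, over residues 1714 to 2021, had 19.5 RPKM in FE and 8.52 RPKM in PE, 2.29-fold higher (2.03 to 2.58), with the call lost under both scalings. ATG2 homolog B (Contig5334) had 18.1 RPKM in FE and 7.03 RPKM in PE, 2.58-fold higher (2.38 to 2.81), and its call was lost with TMM. Contig5334 aligned to residues 554 to 1258 of another protein, of 2085 residues. All 3 ATG2 unigenes fell in the same KOG group and had the same UniProt description, so they may come from a single gene. The ATG9A-like Contig13166, a membrane protein that moves lipid between the leaflets of the new membrane, had 5.71 RPKM in FE and 5.96 RPKM in PE. Contig6662, described as like DRAM1, a lysosomal membrane protein that p53 induces in mammals, had 52.4 RPKM in FE and 68.0 RPKM in PE. These last 2 were the autophagy members that did not share the FE side, along with the beclin unigene Contig16464. No member was described as an ATG8 protein, an ATG1 kinase or a sequestosome, since the wording of the member rule did not meet their descriptions.

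**Figure D3:**
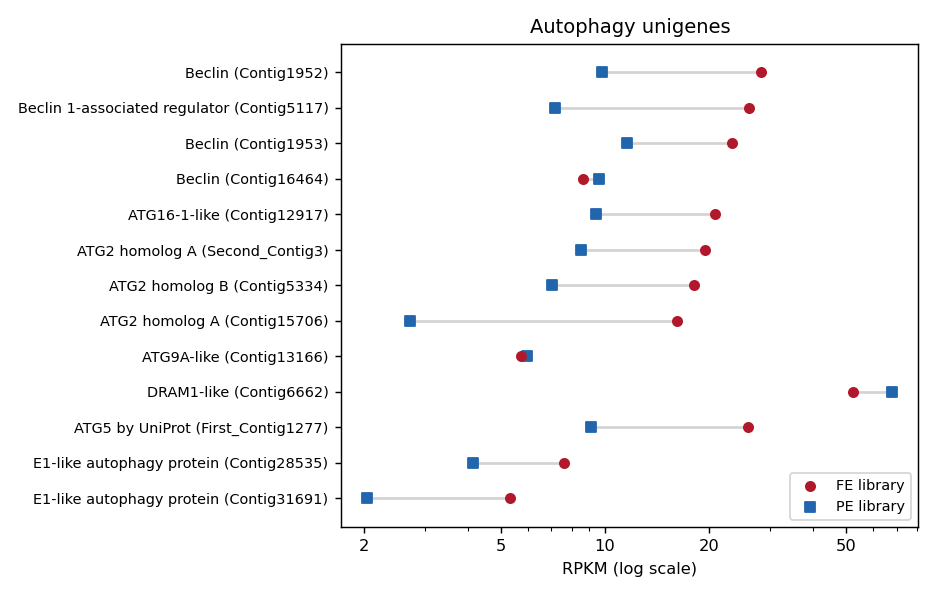
RPKM (log scale) of the 13 autophagy unigenes in the FE library (red circles) and the PE library (blue squares), ordered by role and then by FE level. In 10 of 13 the FE value is the larger, as in 40407 of all 65535 unigenes. The widest gap is at ATG2 homolog A, 16.2 in FE against 2.72 RPKM in PE.

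Caspases made up 54 of the 96 members, and their sum hardly differed while single unigenes differed strongly in both directions. Together they held 399.6 RPM in FE and 380.5 in PE, a ratio of 1.05 (1.03 to 1.07). Of the 49 that reached 1 RPKM, 10 were called higher and 10 lower in FE. This was 40.8%, beside 36.8% of all unigenes kept and 40.1% of those with a description. At a fold of 4 the share was 22.4% (4 higher, 7 lower), beside 9.89% and 12.3%. Caspase-9-like unigenes, which share 1 hit protein, made up 2 of these 4 and 4 of these 7. With the most abundant unigene kept for each of the 14 hit proteins, 2 were called higher and 2 lower at that fold. Among unigenes with a mean of at least 5 RPKM, 27.3% of 22 caspases were called at a fold of 4, beside 16.5% of 19425 unigenes. The direction of the caspase sum rested on a pair of unigenes. Without Contig4167 it was 285 RPM in FE and 380.2 in PE, and without Contig3861 it was 397 and 291. Without both it was 283 and 291, a ratio of 0.971. Identity to the hit protein was 29.3% to 57.1%, with a median of 41.5%, and 44 of the 54 fell in the KOG group of caspases. All 54 carried the GO term proteolysis. Families below follow the Nr description. UniProt named some unigenes of the caspase-9-like, caspase-8-like and Nc-like families caspase-2. Family sums thus depend on the source of the name.

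Caspase-9-like unigenes carried the widest changes. Caspase-9 is the initiator caspase activated on the APAF adaptor in mammals. All 18 hit 1 protein of 458 residues from the mite Metaseiulus occidentalis at 30.8% to 42.4% identity, and 152 of their 153 pairs aligned over at least 30 shared residues. They are thus not pieces of 1 transcript laid end to end, but gene copies, alleles and splice forms cannot be told apart here, and reads may have been split between like unigenes. Contig4167 had 37.1 RPKM in FE and 0.0705 RPKM in PE, from 4757 and 11 reads. It was 526-fold higher in FE (294 to 1054). Contig4168 had 12.6 RPKM in FE and 0.0441 RPKM in PE, from 1641 and 7 reads, 285-fold higher (138 to 710.4). Both were close to absent in PE. Contig3861 had 1.28 RPKM in FE and 52.0 RPKM in PE, from 91 and 4499 reads. It was 40.6-fold lower in FE (33.0 to 50.6). Contig7370 had 2.63 RPKM in FE and 26.3 RPKM in PE, 9.99-fold lower (8.83 to 11.4). Both were the leading caspase-9-like unigenes of PE and minor ones in FE.

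The most abundant caspase-9-like unigenes thus differed between the libraries while the sum differed little. Contig4167 and Contig4168 held 47.4% and 16.4% of the caspase-9-like reads in FE. Contig3861 and Contig7370 held 39.6% and 29% in PE. The sum was 242 RPM in FE and 226 in PE, a ratio of 1.07 (1.04 to 1.10). It was 127 and 225 without Contig4167, 239.8 and 136 without Contig3861, and 125 and 136 without both. Of the 16 that reached 1 RPKM, 6 were called higher, 4 lower and 6 neither, and with TMM 5, 4 and 7. Called in either direction were 62.5%, beside 36.8% of all unigenes kept and 40.1% of those with a description. Each of the 6 called higher overlapped each of the 4 called lower in the mite protein. The 24 pairs called in opposite directions follow from these counts and are no separate result.

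The remaining caspase-9-like calls were smaller. Contig3863 had 15.5 RPKM in FE and 4.22 RPKM in PE, Contig3862 had 6.66 and 1.72 RPKM, and Contig41746 had 5.17 and 1.48 RPKM. They were 3.67-fold, 3.87-fold and 3.49-fold higher in FE. Contig43671 had 80 reads in FE (1.03 RPKM) and no read in PE, at least 32.4-fold higher against a limit of 3 reads in PE. The lower limit of its exact interval, which includes the counting error of the FE reads, was 25.8, and its call was lost with TMM and centred scaling. Contig71937, also without a read in PE, had 10 reads in FE, stayed under 1 RPKM and was at least 4.05-fold higher against the same limit of 3 reads, with an exact lower limit of 2.73. Contig19706 had 0.221 RPKM in FE and 6.47 RPKM in PE, 29.3-fold lower (18.6 to 49.0). Contig23680 had 1.13 RPKM in FE and 8.82 RPKM in PE, 7.78-fold lower (5.94 to 10.3). The highest of the uncalled were Contig19707, with 13.4 RPKM in FE and 9.90 RPKM in PE, and Contig14529, with 7.94 and 8.54 RPKM.

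**Figure D4:**
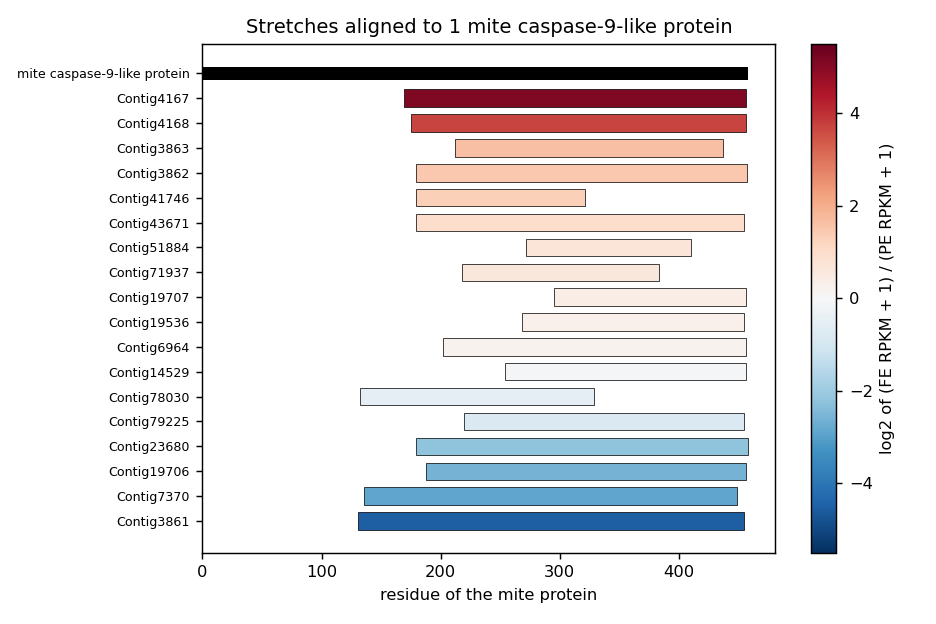
Stretch of the mite caspase-9-like protein (458 residues, black bar) that each of the 18 caspase-9-like unigenes aligned to, coloured by log2 of (FE RPKM + 1)/(PE RPKM + 1). Unigenes higher in FE (red, top) and lower in FE (blue, bottom) cover the same stretch, as Contig4167 at residues 170 to 456 and Contig3861 at residues 132 to 455.

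Caspase-8-like and caspase-2 unigenes were called lower in FE or not at all. Called lower were 3 of 6 and 1 of 5 kept, beside 11.1% of all unigenes kept, of which 25.7% were called higher. Caspase-8 is an initiator activated by death receptors in mammals, and its 6 unigenes hit 1 hemichordate protein. Contig29362 had 0.879 RPKM in FE and 7.83 RPKM in PE, 8.91-fold lower (5.49 to 15.3). Contig20279 had 2 reads in FE and 131 in PE, 53.8-fold lower with a wide interval (14.6 to 449). UniProt named Contig20279 caspase-2, and its KOG group was a predicted E3 ubiquitin ligase. Contig5999 had 2.28 RPKM in FE and 5.81 RPKM in PE, 2.55-fold lower (1.76 to 3.76). These 3 calls held with both scalings. The most abundant, Contig7847, had 15.9 RPKM in FE and 14.1 RPKM in PE. Summed, the 6 had 15.1 RPM in FE and 22.2 in PE, a ratio of 0.682. Of 7 caspase-2 unigenes, 1 was called. Contig61554 had 0.499 RPKM in FE and 27.5 RPKM in PE, from 8 and 536 reads, 55.1-fold lower (27.8 to 128). Caspase-2 sums were 8.95 RPM in FE and 18.8 in PE, and without Contig61554 they were 8.76 and 8.18.

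Smaller caspase families were split as well. Beside their calls, 25.7% of all unigenes kept were called higher and 11.1% lower (18.3% and 15.6% with TMM). Nc-like caspases are named for an initiator of Drosophila. Among 5 of them, Contig79513 had 12 RPKM in FE and 1.13 RPKM in PE, 10.6-fold higher (7.18 to 16.4), and Contig59186 had 0.342 RPKM in FE and 2.56 RPKM in PE, 7.50-fold lower (3.61 to 18). Contig13704, the most even, had 3.68 RPKM in FE and 3.95 RPKM in PE. Caspase-3-like unigenes, named in Nr for a mammalian effector, showed the same split over 1 hit protein. UniProt named all 3 caspase-2, so their place as effectors is not settled here. Contig13703 had 5.68 RPKM in FE and 0.386 RPKM in PE, 14.7-fold higher (7.48 to 33.1). Contig13702 had 0.311 RPKM in FE and 3.49 RPKM in PE, 11.2-fold lower (4.95 to 31.5). Of 4 caspase-1-like unigenes, named for insect effectors, 2 were called higher and 0 lower, but 0 higher and 1 lower with TMM. Contig14718 had 8.83 RPKM in FE and 2.95 RPKM in PE, and Contig19482 had 11.7 and 4.53 RPKM. Contig22201, the most abundant of the 4, had 19.5 RPKM in FE and 31.3 RPKM in PE.

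The 5 unigenes that hit a tick caspase of Ixodes scapularis (233 residues, 34.1% to 56.5% identity) had no call. Of these 1 (Contig33246) was called lower with TMM and with centred scaling, at 3.10 RPKM in FE and 7.14 RPKM in PE. Contig5443 had 60.3 RPKM in FE and 32.4 RPKM in PE, 1.86-fold higher (1.74 to 1.99). It was the most abundant caspase of FE and the second of PE, after Contig3861. Contig17876 had 21.5 RPKM in FE and 29.1 RPKM in PE, and Contig5444 had 22.6 and 21.2 RPKM. Of 6 other caspases, described as caspase, caspase-like or caspase-7-like, none was called. Their levels were 1.49 to 7.75 RPKM in FE and 2.48 to 6.87 RPKM in PE. Among them Contig23569, at 1.49 RPKM in FE and 3.37 RPKM in PE, was called lower with TMM and with centred scaling. The 5 caspases under 1 RPKM in both libraries were 2 caspase-9-like, 2 caspase-2 and 1 caspase-3-like unigenes.

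**Figure D5:**
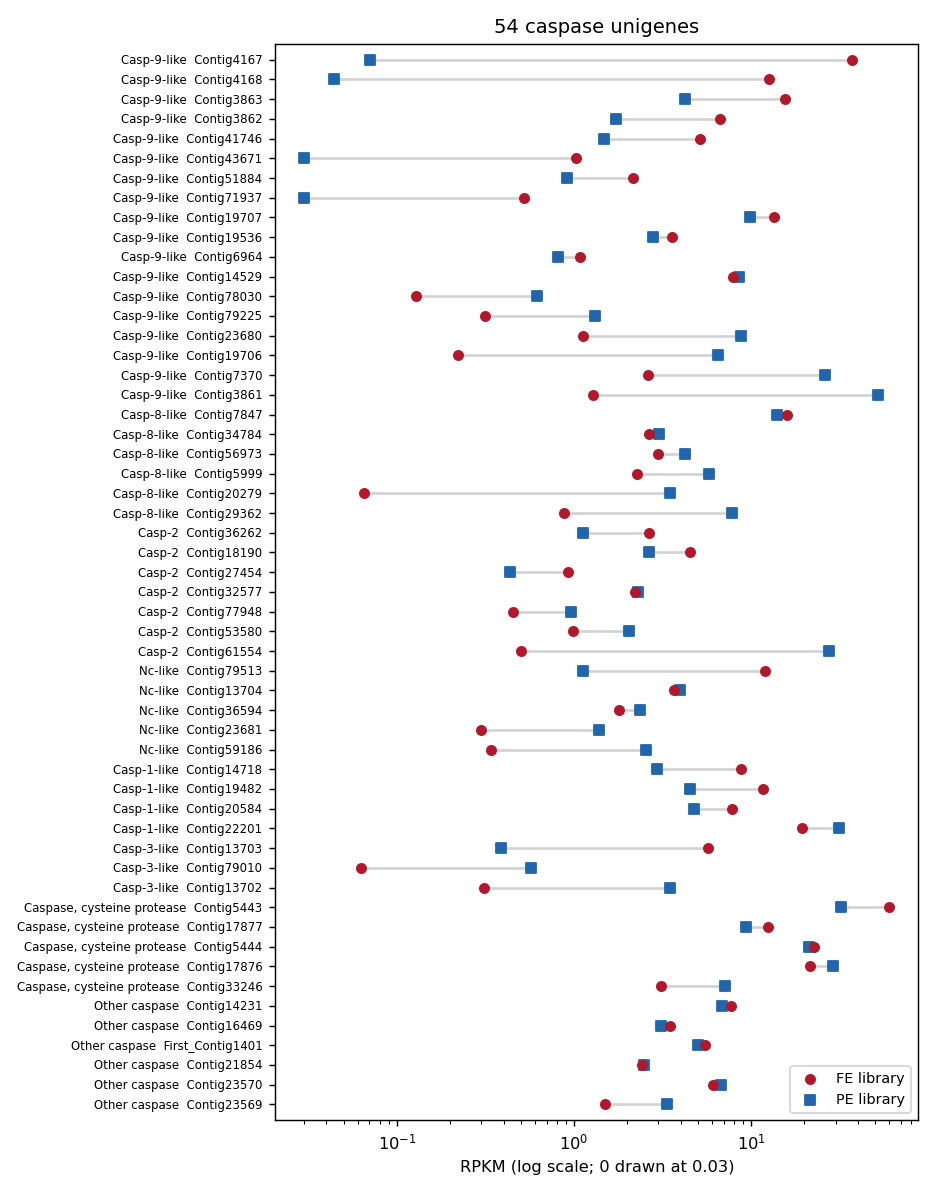
RPKM (log scale, 0 drawn at 0.03) of the 54 caspase unigenes in the FE library (red circles) and the PE library (blue squares), by family and then by log2 ratio. Within the caspase-9-like family the order turns from Contig4167 (37.1 in FE, 0.0705 in PE) to Contig3861 (1.28 in FE, 52.0 in PE).

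Among the members, the partners that switch caspases on were not called. A further Smac-like unigene outside the member rule was called higher and is given at the end. The apoptotic protease-activating factor, the APAF adaptor, was covered by 2 unigenes over residues 4 to 762 and 767 to 1174 of a protein of 1174 residues. Contig34763 had 2.96 RPKM in FE and 3.02 RPKM in PE, and Contig42149 had 2.87 and 3.26 RPKM. Both APAF pieces were low and had intervals that held a ratio of 1. The Smac-like activator of caspase (Contig21217), which frees caspases from IAPs, had 7.88 RPKM in FE and 3.78 RPKM in PE. It was 2.09-fold higher (1.63 to 2.69), and its log2 ratio of 0.89 was under the bar.

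Inhibitors of apoptosis were mostly uncalled. Of 11 unigenes 10 reached 1 RPKM, and 1 was called higher and 0 lower (1 and 1 with either scaling). The share called in either direction was 10%, beside 36.8% of all unigenes kept (25.7% higher and 11.1% lower). Unigenes described as IAP1 or IAP2, which bind caspases through BIR domains, numbered 6 and summed to 60.8 RPM in FE and 51.8 in PE. The most abundant, Contig13149, had 34.3 RPKM in FE and 25.6 RPKM in PE. It held 2124 of their 2521 reads in FE and 1931 of their 2613 reads in PE. The FE level was the larger in 2 of the 6, beside 40407 of all 65535 unigenes. The median log2 ratio of the 5 IAP unigenes kept was -0.51, beside 0.36 for all unigenes kept. First_Contig982 had 3.42 RPKM in FE and 6.75 RPKM in PE, 1.97-fold lower (1.57 to 2.49), and it was called lower with TMM and centred scaling only. Another 4 unigenes hit a tick apoptosis inhibitor of 750 residues, and 3 of them fell in the KOG group of apoptosis inhibitor 5, a nuclear protein that blocks cell death in mammals. These 3 had 25.8 to 52.1 RPKM in FE and 21.5 to 38.1 RPKM in PE and were not called. The fourth, Contig12877, had 8.29 RPKM in FE and 1.78 RPKM in PE, 4.66-fold higher (4.05 to 5.38). It matched the inhibitor over residues 135 to 324 at 41.5% identity and fell in the KOG group of the beta-catenin-binding protein APC.

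Bcl-2 descriptions met 2 unigenes. Contig5703, described as a Bcl-2-interacting protein, had 27.3 RPKM in FE and 12.8 RPKM in PE, 2.14-fold higher (2.05 to 2.22). Its call was lost with TMM and centred scaling, and its KOG group was exopolyphosphatases. Contig24982, described as a regulator of the Bcl-2 family, had 43 reads in FE and 13 in PE (1.40 and 0.347 RPKM) and was not called.

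Programmed cell death proteins were higher in FE in 5 of 6 unigenes, and 1 was called. Of all 65535 unigenes, 40407 had the higher RPKM in FE. Contig5045, whose KOG group is a putative apoptosis-related protein and which was 95.7% identical to its Ixodes hit, had 141 RPKM in FE and 37.3 RPKM in PE. It was 3.77-fold higher (3.60 to 3.96), and its log2 ratio of 1.89 became 1.5 with TMM and 1.68 with centred scaling, called in each case. The others above the PE level were smaller differences. Contig7852 had 111 RPKM in FE and 75.1 RPKM in PE. Programmed cell death 4 (Contig5382), which holds back translation in mammals, had 86.5 RPKM in FE and 53.1 RPKM in PE. Programmed cell death protein 6 (Contig1322), a calcium-binding protein, had 76.7 RPKM in FE and 48.8 RPKM in PE. Its interacting protein (Contig5083), which works in membrane budding and repair in mammals, went the other way with 31.8 RPKM in FE and 49.9 RPKM in PE. It was 1.57-fold lower (1.51 to 1.63), a call with TMM only. A second programmed cell death 6 unigene, Contig39974, had 30 reads in FE and 3 in PE and stayed under 1 RPKM.

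All 3 death-associated proteins were left uncalled. Death-associated protein 1 (Contig884), a small negative regulator of autophagy in mammals, had 98.6 RPKM in FE and 83.0 RPKM in PE. The death-associated protein kinase Contig33632 had 4.82 RPKM in FE and 3.99 RPKM in PE. The third, First_Contig1521, had 29 reads in FE and 49 in PE. Of the other apoptosis descriptions, the apoptosis-stimulating protein of p53 (Contig21424), which binds p53 in mammals, had 32.2 RPKM in FE and 10.8 RPKM in PE, 2.99-fold higher (2.67 to 3.36). The apoptosis-associated THAP protein Contig9709 had 11.4 RPKM in FE and 3.13 RPKM in PE, 3.65-fold higher (2.70 to 4.99). A further THAP unigene, Contig50840, had 6 reads in FE and 21 in PE.

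The authors' deposited table gives a ratio of PE over FE, below 1 where FE is higher, and a false discovery rate (FDR) per unigene, from a test that no source used here names. An FDR under 0.05 stood beside 7.98% of the 65535 unigenes and 15 of the 96 members (15.6%) in the authors' deposited table. These shares are not over like sets. Under 1 RPKM in both libraries were 20553 of the 65535 unigenes but 8 of the 96 members. All members had a description, but only 22972 of the 65535 unigenes did. Of the 15 members, 12 had a ratio below 1 and 3 above 1. The 3 above 1 in the authors' deposited table were the caspases Contig3861 (FDR 2.46e-11), Contig61554 (5.28e-06) and Contig7370 (0.000266). The lowest FDR below a ratio of 1 in the authors' deposited table belonged to Contig5045 (1.37e-14), Contig4167 (1.88e-09) and Contig179 (8.78e-07). The beclin partner Contig5117 (0.0154), beclin Contig1952 (0.0185) and ATG2 homolog A Contig15706 (0.0178) were the autophagy unigenes under 0.05 in the authors' deposited table. An FDR from 1 library per state compares these libraries and not the feeding states.

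Members shared hits and annotation that the member rule did not use. The 96 unigenes hit 43 proteins, and 69 members shared a hit with another. The hits came from the tick Ixodes scapularis for 39 members, the mite Metaseiulus occidentalis for 24 and the hemichordate Saccoglossus kowalevskii for 11. Identity was 26.3% to 95.7%. A GO term was given to 84 members and a KOG group to 79. The UniProt description named the same words for 79 of 96, and restricting the count to those gave 15 called higher and 10 lower. A further 12 unigenes outside the expression table also had matching descriptions and were not analysed here.

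Other genes of these pathways were taken from a word list of 122 unigenes, of which 119 reached 1 RPKM. Among these 53 were called higher and 19 lower in FE (44 and 24 with TMM), 44.5% and 16% beside 25.7% and 11.1% of all unigenes kept. Of the kept unigenes with a description, 30.7% were called higher and 9.4% lower. The 122 hit 55 proteins, so many share a source. Tumour necrosis factor receptor and receptor-associated factor descriptions, adaptors and receptors of death and immune signals, were 99 of the 122. Of the 97 kept, 45 were called higher and 17 lower (38 and 22 with TMM). The other 23 had 8 higher and 2 lower among 22 kept (6 and 2 with TMM). For autophagy, the WIPI4-like Contig759, which binds the lipid made by the beclin complex, had 558 RPKM in FE and 109 RPKM in PE, 5.11-fold higher (4.99 to 5.24). A WIPI2 unigene (Contig27232) had 37.7 RPKM in FE and 18.6 RPKM in PE and was just short of a call. Of 2 ULK3 kinase unigenes, Contig9008 had 20.6 RPKM in FE and 0.161 RPKM in PE, from 632 and 6 reads, 128-fold higher (58.5 to 350.5), and Contig26305 had 6.83 RPKM in FE and 10.8 RPKM in PE. The RB1-inducible coiled-coil protein Contig31201, a scaffold of the autophagy starting kinase in mammals, had 5.59 RPKM in FE and 6.10 RPKM in PE. For the removal of damaged mitochondria, parkin-like Contig19736 had 31.4 RPKM in FE and 8.43 RPKM in PE, and the kinase PINK1 (Contig14242) had 14.4 and 13.3 RPKM.

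For apoptosis, p53 was described for 2 unigenes and both were called higher, as were 25.7% of all unigenes kept. Contig12549 had 20.4 RPKM in FE and 5.88 RPKM in PE, and Contig23184 had 5.95 and 1.90 RPKM, with the second call lost under TMM. The nuclease endonuclease G (Contig8621) had 49.0 RPKM in FE and 14.1 RPKM in PE, 3.48-fold higher (3.25 to 3.73). The IAP-family protein survivin (Contig7439) had 10.4 RPKM in FE and 10 RPKM in PE, and the IAP-cleaving protease HTRA2 (Contig27401) had 19.3 and 14.3 RPKM. The 3 unigenes of Aven, an inhibitor of apoptosis in mammals, differed among themselves. Contig1166 had 11.7 RPKM in FE and 1.98 RPKM in PE, Contig34340 had 16.3 and 10.5 RPKM, and Contig44805 had 1.54 and 5.25 RPKM. The word list also took in a flap endonuclease (Contig33687) and a kelch-like protein named diablo (First_Contig1989), which belong to other processes. The kelch-like unigene was 1 of the 2 called lower, and Aven Contig44805 the other.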

How the data were processed

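Per the file headers, the deposited expression table pairs raw whole-number counts of reads with RPKM values for each unigene. The submitters' processing notes name CASAVA 1.8. Trizol RNA went into TruSeq libraries, per the labels' protocols. No source used here names the assembler, the aligner, the counting tool or the search behind the annotations. The authors deposited a second table with the ratio (fold) of PE over FE and a p-value and FDR per unigene, and annotation tables with the percent identity and the alignment score of each hit.

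Library totals were computed from counts, RPKM and lengths, and ratios and their 95% Clopper-Pearson intervals used these totals (Python 3.11.15, scipy 1.17.1). TMM factors came from edgeR 4.0.16, used for scaling only. The expression table holds 65535 unigenes and a header, so it may be cut. A pseudocount of 1 RPKM was added before log2, which understates the change of low unigenes. The calling rule was checked on simulated counts. PCR copies are not independent molecules, so intervals cover counting error only.

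Members and lists were chosen with earlier results of these data known. Named members were, in each role, the most abundant and those with the highest and lowest log2 ratio at 5 RPKM or more in a library, and over all members the 8 most abundant and the 5 highest and 5 lowest. Other members are given because a role, a family or its calls were described in full, and other pathway genes were chosen after their values were seen. Alternatives were other pseudocounts, filters, scalings, a larger fold, 1 unigene per description and UniProt agreement. Sums without single caspase unigenes and with 1 unigene per hit protein were added after seeing the data.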

Additional observations from a re-analysis of the deposited data

How the results depend on the processing

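Of 32 members named by rule, 19 were called, and 16 of these calls held with TMM and with centred scaling, where Contig12917, Contig5703 and Second_Contig3 were lost. With a pseudocount of 5 RPKM 14 held. Members called higher in FE, 23 as reported, numbered 11 with a pseudocount of 5 RPKM, 15 with TMM, 5 at a fold of 4, 12 with 1 unigene per description and 15 where UniProt had to match. Members called lower, 10 as reported, numbered 6 with a pseudocount of 5 RPKM, 16 with TMM and 2 with 1 unigene per description. The members' median log2 ratio, 0.23 as reported, was -0.11 with TMM. For the further pathway list, 53 higher as reported, the count was 28 at a fold of 4 and 10 with 1 unigene per description. Its count of 19 lower was 9 with a pseudocount of 5 RPKM, 7 at a fold of 4 and 3 with 1 unigene per description. For all unigenes, 11551 higher as reported, the count was 4743 with a pseudocount of 5 RPKM, 7437 at 5 RPKM or more and 2995 at a fold of 4. Their 4992 lower numbered 2057, 3103 and 1452 under the same settings. A larger pseudocount, a larger fold, a stricter filter and 1 unigene per description each lower counts by their construction. The cause of the shift with TMM was not tested. No paired analysis was possible because each state has 1 library, and for the same reason no library could be left out. Unigenes with few reads have wide intervals, so calls below about 5 RPKM rest on little depth.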

Other observations

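Core autophagy genes whose Nr descriptions the member rule did not meet were found through their UniProt description or KOG group, chosen after their values were seen. ATG8 proteins are the ubiquitin-like proteins that coat the autophagosome. The GABARAP-like Contig819 had 260.3 RPKM in FE and 52.9 RPKM in PE, 4.92-fold higher (4.76 to 5.08). The light chain 3 unigene Contig6041 had 30.8 RPKM in FE and 18 RPKM in PE and was not called. Another unigene of the same KOG group, Contig25022, had 8.09 RPKM in FE and 26.3 RPKM in PE, 3.25-fold lower (2.74 to 3.89). The ATG4 protease, which trims ATG8, had 49.4 RPKM in FE and 19.6 RPKM in PE (Contig861, 2.52-fold higher, with the call lost under TMM) and, in another unigene, 12 RPKM in FE and 6.30 RPKM in PE (Contig6884, not called). ATG3, the conjugating enzyme, had 34.7 RPKM in FE and 33.1 RPKM in PE (Contig5616). Among unigenes of the ATG1 kinase KOG group, Contig5 had 38.6 RPKM in FE and 10.5 RPKM in PE, and Contig4 had 32.0 and 6.02 RPKM, both called higher. Both hit 1 Ixodes protein, over residues 30 to 158 and 245 to 315, so they may be pieces of 1 transcript. UniProt named Contig4 as ULK3, a kinase also described for Contig9008 and Contig26305 above. Contig3330 of the same group had 3.62 RPKM in FE and 1.99 RPKM in PE and was not called. The cargo receptor sequestosome 1 was described for 3 unigenes and none was called, with 39.5 RPKM in FE and 38.3 RPKM in PE for the most abundant (Contig12826).

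Cell death genes outside the rule were found in the same way. A Bcl-2 family regulator, Contig3262, had 117 RPKM in FE and 34.8 RPKM in PE, 3.38-fold higher (3.25 to 3.51). Contig36716, Smac-like by UniProt, had 12.5 RPKM in FE and 4.76 RPKM in PE, 2.62-fold higher (2.05 to 3.37). Its call held with centred scaling and was lost with TMM. Of 7 further unigenes in the caspase KOG group, 3 were called higher and 1 lower (2 and 2 with TMM), where 25.7% and 11.1% of all unigenes kept were called. Contig5689, described in UniProt as an RNA helicase, had 18.6 RPKM in FE and 0.242 RPKM in PE, 77.1-fold higher (62.4 to 96.3). Contig78185, a caspase by UniProt, had 1 read in FE and 555 in PE, 456-fold lower (81.6 to 18054). Over the 41 kept unigenes whose UniProt description alone met the member rule, 11 were called higher and 1 lower, and 5 and 2 with TMM. The share called higher, 26.8%, was near the 25.7% of all unigenes kept and under the 30.7% of those with a description. The share called lower was 2.44%, beside 11.1% and 9.4%.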
